A study of Mus musculus with 31 samples.

Results

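Cassette exons that sit in compact loci were examined in mouse models of Huntington's disease (HD), using cortical RNA. A cassette exon is an internal exon that is either kept in the messenger RNA or skipped, and a locus was called compact when the interval listed for the event, from the splice site of the upstream exon to that of the downstream exon, spanned at most 1500 bp. The files listed 220 such events in 214 genes, out of 1922 events of all kinds and next to 1633 cassette events with a longer span. Of the compact events, 196 of 1743 listed events were measured in the R6/2 mice, 204 of 1785 in the Q150 mice and 209 of 1839 in the Q175 mice, and 185 were measured in all 3 sets. None was removed by the minimum of 10 counts. An event of Nnat was listed under 2 identifiers with the same position and the same counts in every mouse, so the 220 events stood at 219 positions.

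The measurements came from RASL-seq, in which pairs of oligonucleotides are annealed to RNA across known splice junctions, ligated and sequenced. For each event the files give a short count (exon skipped) and a long count (exon kept). Exclusion was the percentage of short counts among both. The 31 mice were untreated and gave 1 cortex library each. The 3-month-old set held R6/2 HD mice (n = 3), which carry a transgene for an exon 1 fragment of mutant human huntingtin driven by the human huntingtin promoter, and R6/2 wild-type (WT) mice (n = 3). In the 7-month-old set the endogenous mouse huntingtin gene of the knock-in mice encodes 150 and 7 glutamines on its alleles (Q150 HET, n = 4) or 150 on each (Q150 HOMO, n = 4), with WT mice carrying 7 on each (n = 5). The 18-month-old set held Q175 HET mice with 175 and 7 glutamines (n = 4), Q175 HOMO mice with 175 on each allele (n = 3) and another 5 WT mice with 7 on each. Mutant groups were compared within their set, and the same WT mice thus served HET and HOMO mice.

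Splice sites can be recognized across the exon or, where introns are short, across the intron. Short introns with high GC content are the setting in which pairing across the intron is best known, and a cassette exon between a pair of short introns is flanked by splice sites that lie close together. Skipping an exon whose length is a multiple of 3 leaves the reading frame intact, and skipping any other coding exon shifts it. Many genes for RNA-binding proteins and chromatin regulators carry cassette exons of this kind.

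Exons were identified by matching the gene and the exact length of the interval to GENCODE annotation on GRCm38, since the positions in the files do not lie on that build. A single exon fitted for 188 of the 220 events and several for 27. The 7 exons below carry the main results. Of these, 6 are coding exons that passed the test in R6/2 HD, Q150 HOMO and Q175 HOMO mice with a different size of change in R6/2 HD and a knock-in line (not under every setting for the Rnf112 difference and for the calls of Mlx and Rnf112 in Q175 HOMO mice), and the Pcbp2 exon passed in R6/2 HD mice alone. All 7 keep the reading frame. They lie at chr10:127090142-127090201 on the plus strand (Centg1, now Agap2), chr11:101088236-101088325 on the plus strand (Mlx), chr15:102488776-102488814 on the plus strand (Pcbp2), chr7:122997596-122997697 on the plus strand (Rbbp6), chr11:61453428-61453496 on the minus strand (Rnf112), chr3:108427861-108427932 on the minus strand (Sars) and chr9:21677953-21678051 on the plus strand (Smarca4) of GRCm38. Each is written 5′ to 3′ with the exon in capitals and 20 intron bases on either side in lower case.
Centg1: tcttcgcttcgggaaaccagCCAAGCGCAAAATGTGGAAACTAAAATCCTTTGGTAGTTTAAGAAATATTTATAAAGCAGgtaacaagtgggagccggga
Mlx: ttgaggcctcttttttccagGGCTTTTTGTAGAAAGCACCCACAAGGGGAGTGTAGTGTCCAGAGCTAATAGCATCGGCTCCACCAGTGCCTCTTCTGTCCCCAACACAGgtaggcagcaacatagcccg
Pcbp2: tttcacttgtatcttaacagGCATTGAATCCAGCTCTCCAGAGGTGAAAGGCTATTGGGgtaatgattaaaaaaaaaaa
Rbbp6: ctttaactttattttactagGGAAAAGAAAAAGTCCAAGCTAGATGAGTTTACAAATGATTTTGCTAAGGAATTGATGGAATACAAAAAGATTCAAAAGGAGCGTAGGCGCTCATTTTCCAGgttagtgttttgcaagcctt
Rnf112: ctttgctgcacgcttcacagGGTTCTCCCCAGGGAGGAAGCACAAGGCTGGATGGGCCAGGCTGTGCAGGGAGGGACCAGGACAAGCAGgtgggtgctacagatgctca
Sars: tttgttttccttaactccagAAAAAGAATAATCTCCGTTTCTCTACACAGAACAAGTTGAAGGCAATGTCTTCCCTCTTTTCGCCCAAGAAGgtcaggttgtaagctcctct
Smarca4: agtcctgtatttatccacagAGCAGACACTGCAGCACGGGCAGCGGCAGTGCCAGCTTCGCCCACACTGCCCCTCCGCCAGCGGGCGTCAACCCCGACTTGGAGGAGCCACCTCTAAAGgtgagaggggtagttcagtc

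Among themselves the compact events varied widely. Their span ran from 258 to 1485 bp with a median of 886.5 bp, against a median of 6793 bp for longer cassettes. The rule's limit fell between Ktn1 event 3970 (1485 bp) and Ptbp1 (1479 bp) on the inside and Epb4.1l3 (1513 bp) and 4930589M24Rik (1516 bp) on the outside. The 188 identified exons had a median length of 93 bases, close to the median of 90 bases of 1331 exons identified for longer cassettes, and ran from 13 to 579 bases. Their flanking introns had median lengths of 367 bases upstream and 353.5 bases downstream, against 2921 and 2822 bases for longer cassettes, which the rule largely sets. GC content was not part of the rule. The median exon held 53.4% GC in compact loci and 48.5% in longer ones, and the median interval 50.6% against 42.3%. Exon length was a multiple of 3 in 111 of 188 compact cases (59.0%) and in 885 of 1331 longer ones (66.5%). These counts include untranslated and noncoding exons. Of the compact exons, 114 were annotated as coding throughout, 23 as coding in some transcripts and untranslated in others, 43 as untranslated and 8 lay in transcripts with no coding sequence. All 188 began after an AG acceptor, 185 ended before a GT donor and 3 before a GC donor. Differences between compact and longer loci are given as description and were not tested.

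In WT mice the compact exons were skipped more often than those of longer loci. The median compact event had an exclusion of 50.9% in R6/2 WT, 48.7% in Q150 WT and 48.5% in Q175 WT mice, against 40.0%, 39.1% and 39.8% for longer cassettes. Many events lay near an end of the scale, with 34, 39 and 43 compact events below 10% and 34, 31 and 37 above 90% in the 3 WT groups. Depth was 2171709 to 4337557 counts a mouse (R6/2 set), 2970207 to 5219877 (Q150 set) and 3351064 to 5256516 (Q175 set). Compact events took 11.6% to 13.4% of these, and the median compact event had 347 to 837 counts in a mouse. Intervals on single values treat each count as independent and leave out the spread between mice. PCR copies were counted as separate reads, so the intervals can be too narrow even for counting error.

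Averaged over all compact events, exclusion was higher in HD mice. Mean exclusion was 50.5%, 49.3% and 49.5% in the R6/2 WT mice and 53.5%, 54.3% and 53.9% in the R6/2 HD mice, and the groups did not overlap. The group means of 53.9% ± 0.409 (SD, n = 3) and 49.8% ± 0.645 (SD, n = 3) differed by 4.13 percentage points, while longer cassettes differed by 1.48 points. Q150 WT mice had a mean of 48.2% ± 0.592 (SD, n = 5), HET mice 49.4% ± 0.464 (SD, n = 4) and HOMO mice of this line 51% ± 0.908 (SD, n = 4). The differences from WT were 1.17 points for HET mice, of which 3 of 4 lay above every WT mouse, and 2.82 points for HOMO mice, of which 4 of 4 did. For longer cassettes the same differences were 0.937 and 1.77 points. In the Q175 set the means were 48.5% ± 0.591 (SD, n = 5) for WT, 49.2% ± 0.512 (SD, n = 4) for HET and 50.1% ± 0.400 (SD, n = 3) for HOMO mice. The HET mean was higher by 0.736 points (3 of 4 mice exceeded the highest WT mouse) and the HOMO mean by 1.60 points (3 of 3 mice), against 0.237 and 0.555 points for longer cassettes. The size depended on the summary. Taken as a median over events, the difference was 7.00 points in R6/2 HD, 2.09 in Q150 HET, 3.83 in Q150 HOMO, 2.20 in Q175 HET and 3.11 in Q175 HOMO mice. As a share of summed counts, in which deeper events weigh more, it was 2.95 points in R6/2 HD mice, 0.854 (HET) and 1.40 (HOMO) in the Q150 line, and 0.305 (HET) and 0.913 (HOMO) in the Q175 line. Mouse numbers in the titles, which the labels do not call a batch, were split here at 400 in the Q150 set and at 1000 in the Q175 set into a low and a high series. In the Q150 line the differences from WT were 0.964 (low) and 1.26 points (high) for HET and 3.20 (low) and 2.61 points (high) for HOMO mice. The HET values rest on 3 low mice and 1 high mouse and the HOMO values on 2 and 2. They stand against 3 low and 2 high WT mice. The Q175 HET mice are all of the low and the Q175 HOMO mice all of the high series, where the differences from WT mice of the same series were 0.450 and 2.03 points. In the R6/2 set no such split was made, since each group has its own run of numbers (3, 4 and 6 in WT, 860, 868 and 869 in HD mice).

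**Figure D1:**
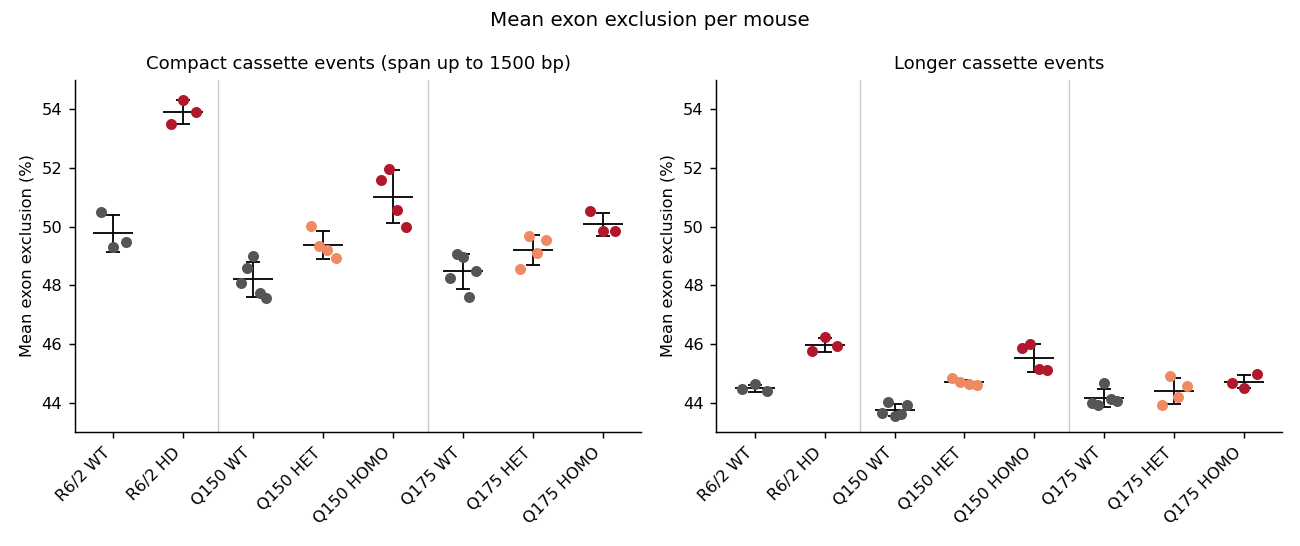
Mean exon exclusion (%) of each mouse over compact cassette events (left) and longer cassette events (right); points are mice, black marks and bars the group mean and SD, and the vertical axis does not start at 0. On the left R6/2 HD mice lie at 53.5% to 54.3% and R6/2 WT mice at 49.3% to 50.5%, and all HOMO mice lie above the WT mice of their set.

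Event by event, the short-to-long ratio was compared on the log2 scale with limma and passed at a Benjamini-Hochberg adjusted p under 0.05 over all events of the set. In R6/2 HD mice 75 of 196 compact events passed (38.3%), where 28.6% of all events did. Exclusion was higher in 61 and lower in 14 of them; over all events, higher exclusion passed in 21.1% and lower in 7.46%. Q150 HOMO mice had 68 of 204 compact events past the threshold (33.3%), against 23.9% of all events, with 61 higher (19.8% of all events) and 7 lower (4.09%). Q175 HOMO mice had 23 of 209 (11%), against 7.07% of all events, with 21 higher (5.6% of all events) and 2 lower (1.47%). In Q150 HET mice 12 of 204 compact events passed (5.88%), against 3.47% of all events, with 11 higher (3.03% of all events) and 1 lower (0.448%). In Q175 HET mice 2 of 209 passed (0.957%), against 0.598%, with 1 higher (0.381% of all events) and 1 lower (0.218%). Exclusion values of mutant and WT mice did not overlap in 93 compact events in the R6/2 set (47.4%, against 41.5% of all events) and in 49 for Q150 HOMO mice (24.0%, against 18.2%). The same held for 36 events in Q175 HOMO mice (17.2%, against 13.8%), 20 in Q150 HET mice (9.80%, against 7.39%) and 10 in Q175 HET mice (4.78%, against 3.48%).

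The direction depended in part on the scale. The median change over compact events was 0.38 (log2) in R6/2 HD, 0.15 in Q150 HET, 0.30 in Q150 HOMO, 0.11 in Q175 HET and 0.16 in Q175 HOMO mice, beside medians over all events of 0.18, 0.10, 0.19, 0.041 and 0.068. When every mouse's ratios were set to a median of 0, 72 compact events passed in R6/2 HD mice with 52 higher (72.2%, against 81.3% without centring) and 47 in Q150 HOMO mice with 34 higher (72.3%, against 89.7%). In Q150 HET mice 7 passed after centring with 5 higher (71.4%, against 91.7%), and in Q175 HOMO mice 17 with 15 higher (88.2%, against 91.3%). Without a variance trend 6 events passed in Q150 HET and 9 in Q175 HOMO mice, and with all 10 knock-in WT mice 26 and 11. Single mice moved 3 of the counts by over 1.5 times. The 12 calls in Q150 HET mice became 2 when HET replicate 1 was left out, 6 without WT replicate 4 and 7 without any of WT replicates 1 and 3 or HET replicates 2 and 4. The 23 in Q175 HOMO mice became 13 without HOMO replicate 2 and 14 without HOMO replicate 3, and the 2 in Q175 HET mice became 4 without HET replicate 1.

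**Figure D2:**
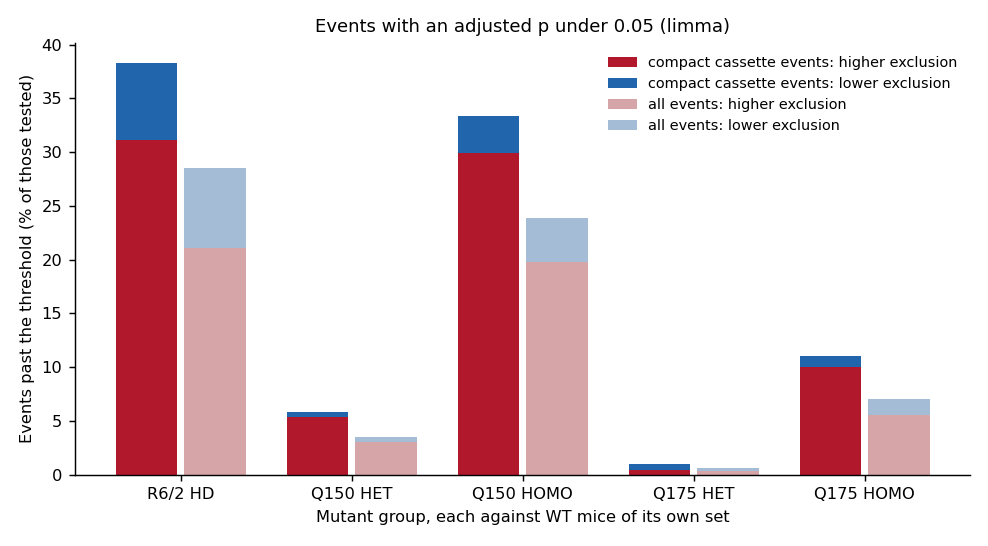
Share of events past the threshold (% of those tested) in each mutant group against WT mice of its own set, for compact cassette events (dark bars, left of each pair) and all events (pale bars, right), split into higher (red) and lower (blue) exclusion. Compact events reach 38.3% in R6/2 HD and 33.3% in Q150 HOMO mice, against 28.6% and 23.9% of all events.

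Across the lines, 97 of the 220 compact events passed in at least 1 comparison (44.1%) and 123 in none, where 36.5% of all 1922 events passed in at least 1. Of the 185 events measured in all sets, 15 passed with the same sign in R6/2 HD, Q150 HOMO and Q175 HOMO mice (8.11%), against 4.09% of all 1662 events so measured. Exclusion was higher in 14 of them, in Hnrpdl (event 9429), Fmnl1, Mlx, Sars, Pcsk7, D230025D16Rik, Centg1, Rbbp6, Rnf112, Smarca4, Nbr1, Chd5, Shc1 and Ubtf, and lower in Mag. Of the 15 exons, 12 have a length that is a multiple of 3, 11 are coding throughout and 3 are untranslated. Their lengths run from 45 to 171 bases. In all 15 the absolute log2 change was larger in R6/2 HD than in either HOMO group. In 13 it was larger in Q150 HOMO than in Q175 HOMO mice. These are point estimates in events selected for passing in all 3 groups, and not every such difference passed the test between lines. With any single mouse left out, 8 of the 15 stayed past the threshold in all 3 groups. The others lost a call somewhere. In Q175 HOMO mice Mlx lost it without any HOMO mouse or WT replicate 6 or 9 (adjusted p of up to 0.103 with a mouse left out) and Nbr1 without any HOMO mouse or WT replicate 7, 8 or 10 (up to 0.213). D230025D16Rik lost it without HOMO replicate 1 or 3 or WT replicate 8 or 9 (up to 0.171) and Shc1 without HOMO replicate 1 or 3 or WT replicate 6, 7 or 8 (up to 0.467). Chd5 lost it there without HOMO replicate 2 (0.0943) and Ubtf without HOMO replicate 3 (0.0816). In R6/2 HD mice Shc1 lost its call without HD replicate 868 (0.0542), and in Q150 HOMO mice Mag lost its call without HOMO replicate 1 or 4 or WT replicate 4 (up to 0.125). Other choices ended calls in Q175 HOMO mice as well. With all 10 knock-in WT mice as controls the change of Chd5 was 0.13 (adjusted p = 0.732), against 0.46 with the 5 of its set, and D230025D16Rik (0.107), Mlx (0.0634), Rnf112 (0.0712) and Ubtf (0.104) no longer passed. The series of mouse numbers as a term ended the calls of D230025D16Rik (0.0563), Nbr1 (0.107) and Shc1 (0.344). Centring on the median event ended those of Nbr1 (0.0798) and Shc1 (0.0519), and a fit of the compared groups alone that of Nbr1 (0.0518). Without a variance trend 7 of the 15 lost it there, Chd5, D230025D16Rik, Fmnl1, Mlx, Nbr1, Shc1 and Ubtf (0.0644 to 0.207), as did Shc1 in R6/2 HD (0.0581) and Mag in Q150 HOMO mice (0.0954).

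**Figure D3:**
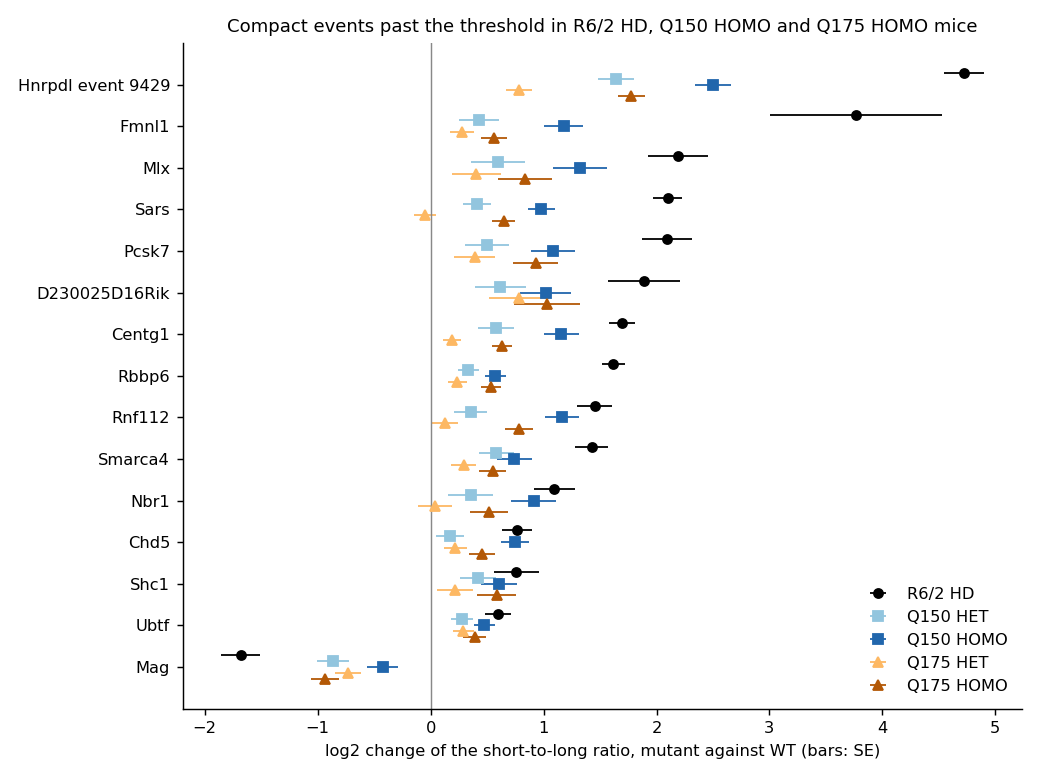
Changes against WT on the log2 scale of short over long counts (horizontal axis, bars are SE) for the 15 compact events that passed in R6/2 HD, Q150 HOMO and Q175 HOMO mice, with the HET groups beside them. Positive values mean more skipping; the changes run from -1.68 (Mag) to 4.72 (Hnrpdl event 9429) in R6/2 HD mice.

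Among genes of RNA processing, Rbbp6 and both events of Hnrpdl passed in more than 1 line. Rbbp6 encodes a RING finger protein that takes part in cleavage of pre-mRNA before polyadenylation. Exclusion of its 102-base exon was 35.9%, 38.6% and 37.7% in R6/2 WT mice and 66.1%, 63.6% and 64.3% in R6/2 HD mice. Values of 41.6%, 41.5%, 40.0%, 40.3% and 43.4% in Q150 WT mice stood against 48.7%, 48.3%, 44.4% and 47% in HET and 51.9%, 50.1%, 51% and 51.9% in HOMO mice. The 18-month-old WT mice had 40.7%, 41.8%, 42.4%, 40.4% and 42.7%, the Q175 HET mice 45.1%, 47.7%, 43.5% and 46.1% and the Q175 HOMO mice 50.7%, 52% and 49.5%. No mutant mouse overlapped the WT mice of its set, and in both lines the HET mice lay between WT and HOMO mice. The change was 1.62 ± 0.10 (SE) in R6/2 HD (adjusted p = 4.50e-07), 0.57 ± 0.09 in Q150 HOMO (adjusted p = 1.01e-04) and 0.53 ± 0.09 in Q175 HOMO mice (adjusted p = 9.52e-05). In HET mice it was 0.34 ± 0.09 in the Q150 line (adjusted p = 0.0434, lost without any of 7 single mice and, among other settings, after centring at 0.220) and 0.24 ± 0.08 in the Q175 line (adjusted p = 0.233).

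Hnrpdl, now Hnrnpdl, encodes a heterogeneous nuclear ribonucleoprotein related to AUF1, and carried neighbouring compact events that changed in opposite directions. Event 9429 skips a 171-base exon at chr5:100036481-100036651 of GRCm38, minus strand, and event 8890 a 105-base untranslated exon at chr5:100035635-100035739, 741 bases downstream. Exclusion of the 171-base exon was 0.948%, 1.39% and 0.861% in R6/2 WT and 23.9%, 19.4% and 22.5% in R6/2 HD mice. It was 0.855% to 1.14% in Q150 WT, 2.84% to 3.60% in HET and 4.03% to 7.55% in HOMO mice, and 1.22% to 1.75%, 2.36% to 2.68% and 4.66% to 5.02% in the Q175 set. No group overlapped another of its set, and the order was WT, HET, HOMO in both knock-in lines. Among events that passed without overlap it had the largest change in every comparison but that of Q150 HOMO mice, where Rbm5 came first. The change was 4.72 ± 0.18 in R6/2 HD (adjusted p = 6.45e-09), 1.64 ± 0.16 and 2.50 ± 0.16 in Q150 HET and HOMO, and 0.78 ± 0.11 and 1.78 ± 0.12 in Q175 HET and HOMO mice. Exclusion of the 105-base exon was 88.4%, 88.5% and 88.3% in R6/2 WT and 59.3%, 71% and 64.1% in R6/2 HD mice. In the Q150 set it was 85.3% to 87% in WT, 84.5% to 87.4% in HET and 80.2% to 82.5% in HOMO mice, where HOMO mice alone stood apart from WT. The change was -2.04 ± 0.15 in R6/2 HD (adjusted p = 1.81e-06) and -0.50 ± 0.09 in Q150 HOMO mice (adjusted p = 4.58e-04). In Q175 HOMO mice it was -0.06 ± 0.11 (adjusted p = 0.819, 95% interval -0.29 to 0.17). Which exons occur together in 1 transcript is not measured by single junctions.

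Pcbp2, a poly(C)-binding protein that acts in RNA stability, translation and splicing, had its 39-base exon skipped more in R6/2 HD mice. Exclusion was 10.5%, 9.47% and 13.2% in R6/2 WT and 29.1%, 28.8% and 32% in R6/2 HD mice. The knock-in mice ran from 11.4% to 16.5% in Q150 HOMO and from 16.9% to 18.9% in Q175 HOMO mice, with WT mice at 10.9% to 13.9% and 12.8% to 17.8%. The R6/2 groups stood far apart, and the knock-in groups overlapped their WT mice. The change was 1.79 ± 0.17 in R6/2 HD (adjusted p = 1.32e-05), with 95% intervals of -0.32 to 0.37 in Q150 HOMO and 0.04 to 0.61 in Q175 HOMO mice. Rbm5, a regulator of splicing, was measured in the Q150 set alone. Its exclusion was 1.48%, 0.893%, 1.08%, 0.648% and 1.17% in WT, 3.64%, 2.28%, 2.82% and 2.20% in HET and 10.5%, 5.96%, 8.81% and 5.81% in HOMO mice, with no overlap between the groups. The change was 2.90 ± 0.29 in HOMO mice (adjusted p = 2.95e-07) and 1.36 ± 0.29 in HET mice (adjusted p = 0.0137). Tsr1, needed for maturation of the small ribosomal subunit, was skipped rarely in WT mice and rose from 0.992% to 4.96% in R6/2 HD (2.33 ± 0.37, adjusted p = 5.27e-04) and from 1.04% to 3.82% in Q150 HOMO mice (1.92 ± 0.29, adjusted p = 4.61e-05).

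**Figure D4:**
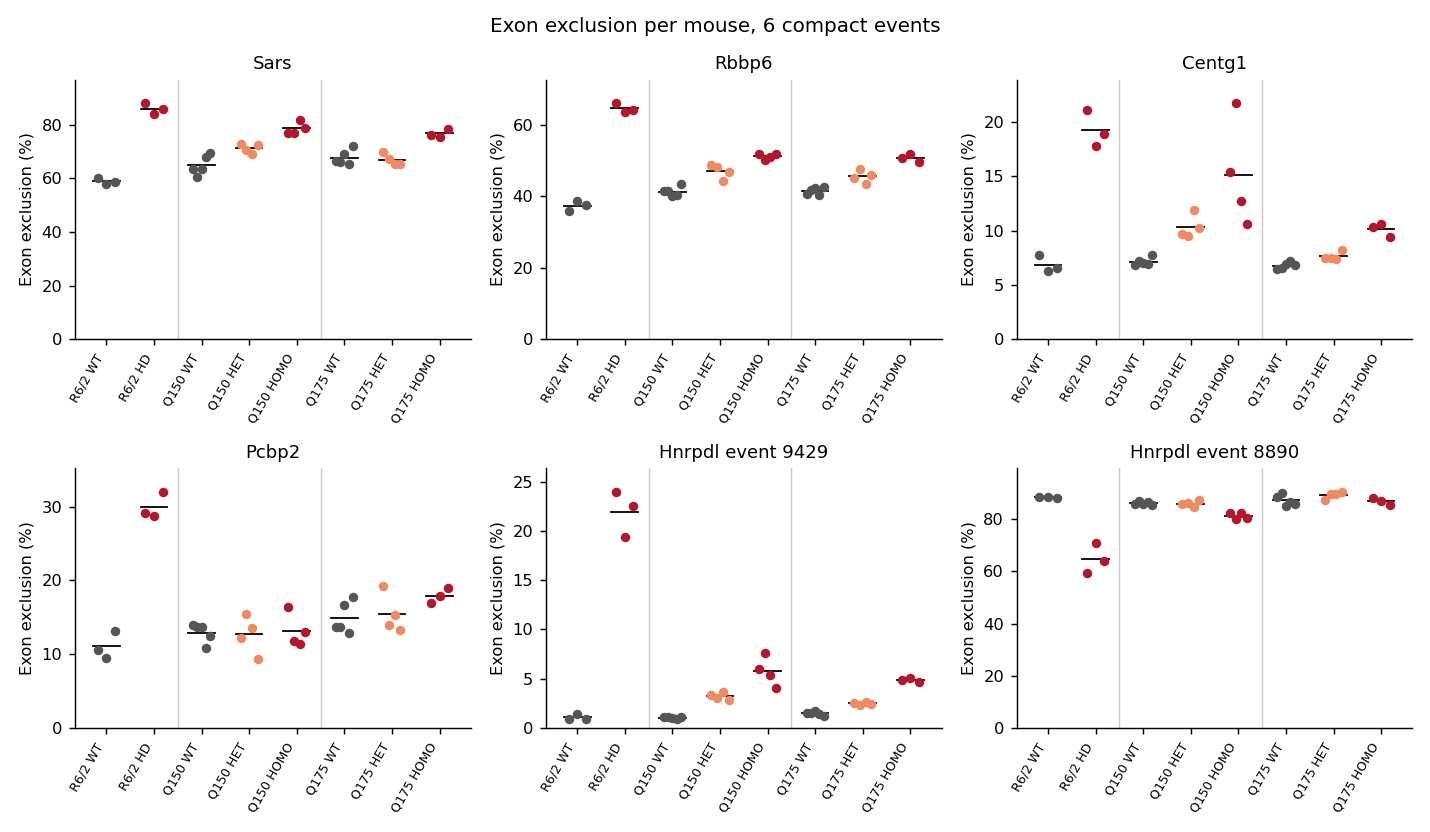
Exon exclusion (%) of each mouse for 6 compact events in the 8 groups; points are mice, black lines group means, and each panel has its own axis from 0. Sars, Rbbp6, Centg1 and Hnrpdl event 9429 lie higher in R6/2 HD and both HOMO groups than in WT mice, Pcbp2 passed the test in R6/2 HD mice alone, and Hnrpdl event 8890 lies lower in R6/2 HD and Q150 HOMO mice.

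Sars, which encodes the cytosolic enzyme that charges transfer RNA with serine, had a 72-base coding exon that was skipped in most counts of WT mice. Exclusion was 60.1%, 58% and 58.5% in R6/2 WT and 88%, 83.9% and 85.8% in R6/2 HD mice. Among 7-month-old mice it was 63.5%, 60.6%, 63.6%, 67.8% and 69.5% in WT, 72.9%, 70.4%, 69.2% and 72.3% in HET and 77.1%, 76.8%, 81.8% and 78.6% in HOMO mice. The oldest mice had 66.3%, 66.1%, 69.1%, 65.2% and 71.9% (WT), 69.9%, 67.2%, 65.5% and 65.4% (HET) and 76%, 75.6% and 78.5% (HOMO). R6/2 HD and both HOMO groups stood above all their WT mice, while HET mice overlapped WT mice in both lines. The change was 2.10 ± 0.13 in R6/2 HD (adjusted p = 4.50e-07), 0.98 ± 0.12 in Q150 HOMO (adjusted p = 6.48e-06) and 0.65 ± 0.10 in Q175 HOMO mice (adjusted p = 4.76e-05). In HET mice it was 0.41 ± 0.12 (adjusted p = 0.0652) in the Q150 and -0.05 ± 0.10 (adjusted p = 0.874) in the Q175 line. The Q150 HET change passed with the series of mouse numbers as a term (0.00257), in the quasi-binomial model (0.0498) and without WT replicate 5 (0.0324).

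Of 15 compact events in listed genes of chromatin and transcription, 7 passed in R6/2 HD mice, 6 of them toward skipping, beside 28.6% of all events past the threshold there and 21.1% with higher exclusion. Smarca4 encodes BRG1, an ATPase of the SWI/SNF remodelling complex. Exclusion of its 99-base exon was 80.2%, 82.9% and 83.7% in R6/2 WT and 92.3%, 92.7% and 92.8% in R6/2 HD mice, 79.9% to 86.7% in Q150 WT and 88.5% to 91.1% in Q150 HOMO mice, and 83% to 85.5% in Q175 WT and 88% to 90.1% in Q175 HOMO mice. In each set these mutant mice lay above all WT mice. The change was 1.42 ± 0.14 (adjusted p = 2.41e-05), 0.74 ± 0.15 (adjusted p = 0.00113) and 0.55 ± 0.12 (adjusted p = 0.00246). Chd5, a remodeller of the CHD family found in neurons, has a 115-base exon, a length that is not a multiple of 3. It rose to 81% ± 1.09 (SD, n = 3) in R6/2 HD mice from 71.4% ± 3.28 (SD, n = 3) in WT (0.76, adjusted p = 0.00100) and to 80.4% ± 1.61 (SD, n = 4) in Q150 HOMO mice from 70.9% ± 3.58 (SD, n = 5) in WT (0.75, adjusted p = 1.55e-04). Mlx, a basic helix-loop-helix partner of glucose-responsive transcription factors, had 20.9%, 17.9% and 14.5% in R6/2 WT and 57.4%, 48.9% and 43% in R6/2 HD mice, without overlap (2.19 ± 0.27, adjusted p = 8.80e-05). Ubtf, the upstream binding factor of RNA polymerase I, rose to 32.9% ± 2.68 (SD, n = 3) in R6/2 HD mice from 24.5% ± 1.85 (SD, n = 3) in WT (0.60 ± 0.12, adjusted p = 0.00228). Bcor, a corepressor that binds BCL6, is not in the list counted above and was picked for its large R6/2 change. It passed in R6/2 HD mice with the exon skipped in 2.81% ± 0.618 (SD, n = 3) of counts against 0.667% ± 0.209 (SD, n = 3) in WT (2.06 ± 0.37, adjusted p = 0.00117). Kdm6a, a demethylase of lysine 27 of histone H3, had 34.4%, 38.4%, 41.8%, 42.6% and 34.4% in Q150 WT and 63.9%, 58.1%, 59.1% and 53.2% in Q150 HOMO mice. These did not overlap, and the change was 1.19 ± 0.17 (adjusted p = 3.38e-05). In R6/2 HD mice its change was 0.85 ± 0.24 (adjusted p = 0.0165), lost without WT replicate 3 or 6 or HD replicate 868 (up to 0.0648).

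In the ubiquitin and autophagy pathways, Rnf112, a RING finger ubiquitin ligase of the brain, passed in R6/2 HD and both HOMO groups. Exclusion was 16.3%, 19.9% and 17.7% in R6/2 WT and 42%, 35.3% and 35.2% in R6/2 HD mice. Q150 WT mice had 18.3% to 23.9%, HET mice 22.3% to 27.7% and HOMO mice 33% to 43%. In the Q175 set the ranges were 13.1% to 18.1%, 15.3% to 18.6% and 23.1% to 24.9%. R6/2 HD and HOMO values exceeded all WT values of the set, and HET values overlapped them. The change was 1.45 ± 0.16 (adjusted p = 3.50e-05), 1.16 ± 0.15 (adjusted p = 8.03e-06) and 0.78 ± 0.13 (adjusted p = 5.06e-05) in R6/2 HD, Q150 HOMO and Q175 HOMO mice. Nbr1, a receptor that links ubiquitinated cargo to autophagosomes, rose to 57.8% ± 2.33 (SD, n = 3) in R6/2 HD mice from 39.1% ± 3.48 (SD, n = 3) in WT (1.09, adjusted p = 7.60e-04) and to 54.8% ± 7.14 (SD, n = 4) in Q150 HOMO mice from 39.3% ± 4.03 (SD, n = 5) in WT (0.91, adjusted p = 0.00190), where 1 HOMO mouse lay among the WT mice. Mib2, a ubiquitin ligase that acts on Notch ligands, rose in R6/2 HD mice from 67.3% to 76.1% (0.62 ± 0.15, adjusted p = 0.00801). The opposite direction was seen in Rnf167, a ligase of endosomal membranes, which fell to 65% ± 1.76 (SD, n = 3) in R6/2 HD mice from 79.6% ± 3.62 (SD, n = 3) in WT (-1.08 ± 0.22, adjusted p = 0.00247).

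Among genes of membrane traffic and signalling, Centg1 was measured at high depth. Centg1, now Agap2, encodes a protein with a GTPase domain and Arf GTPase-activating activity that acts in endosomal traffic, and its event had at least 12168 counts in every R6/2 mouse. Exclusion of the 60-base exon was 7.79%, 6.26% and 6.56% in R6/2 WT and 21.1%, 17.8% and 18.9% in R6/2 HD mice. Values were 6.83%, 7.24%, 7.0%, 6.95% and 7.77% in Q150 WT, 9.71%, 9.51%, 11.9% and 10.3% in HET and 15.4%, 21.7%, 12.7% and 10.6% in HOMO mice. Among 18-month-old mice they were 6.46%, 6.53%, 6.90%, 7.16% and 6.84% in WT, 7.44%, 7.52%, 7.41% and 8.18% in HET and 10.3%, 10.6% and 9.44% in HOMO mice. No mutant mouse overlapped the WT mice of its set. The change was 1.70 ± 0.11 (adjusted p = 8.81e-07) in R6/2 HD, 1.16 ± 0.16 (adjusted p = 1.78e-05) in Q150 HOMO and 0.63 ± 0.09 (adjusted p = 2.14e-06) in Q175 HOMO mice. Arfgap1, which switches off Arf1 at the Golgi, moved toward inclusion, from 1.30% to 0.601% in R6/2 HD (-1.12 ± 0.25, adjusted p = 0.00503) and from 1.44% to 0.973% in Q175 HOMO mice (-0.58 ± 0.16, adjusted p = 0.0166, lost without HOMO replicate 2 or 3 or WT replicate 9, and at 0.519 with all 10 knock-in WT mice). Shc1, an adaptor of receptor tyrosine kinases, rose to 25.2% ± 5.30 (SD, n = 3) in R6/2 HD mice from 16.4% ± 1.47 (SD, n = 3) in WT (0.76, adjusted p = 0.0125). Rabl2, a Rab-like GTPase, rose from 0.608% to 1.57% in R6/2 HD mice (1.35 ± 0.30, adjusted p = 0.00506).

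Named events also lay in genes of proteases, of the cytoskeleton and of channels. Listed cytoskeleton and motor genes passed in 3 of 7 events in R6/2 HD mice. Listed channels, receptors and transporters passed in 1 of 3, beside 28.6% of all events. No list of proteases was made. Pcsk7, a proprotein convertase of the secretory pathway, had 53.9%, 52.3% and 53% exclusion of an untranslated exon in R6/2 WT and 81.3%, 84.9% and 82.4% in R6/2 HD mice, 50.2% to 61.7% in Q150 WT and 69.7% to 74% in Q150 HOMO mice, and 47% to 56% in Q175 WT and 62.9% to 72% in Q175 HOMO mice. None of these pairs of groups overlapped. Its change was 2.09 ± 0.22 (adjusted p = 3.32e-05), 1.09 ± 0.20 (adjusted p = 3.31e-04) and 0.93 ± 0.20 (adjusted p = 0.00227). Adamts10, a secreted metalloprotease linked to microfibrils, had 6.07%, 7.13%, 7.85%, 7.13% and 4.93% in Q150 WT, 10.4%, 10.6%, 10.8% and 10.1% in HET and 16.1%, 17.5%, 14% and 11.6% in HOMO mice. The 3 groups did not overlap, with a change of 0.74 ± 0.16 (adjusted p = 0.0151) in HET and 1.29 ± 0.16 (adjusted p = 6.48e-06) in HOMO mice. In Q175 HOMO mice the same exon had a change of 0.46 ± 0.16 (adjusted p = 0.0793). The R6/2 set gave its largest change, from 5.74% ± 1.58 (SD, n = 3) in WT to 18.7% ± 2.06 (SD, n = 3) in HD mice (1.94 ± 0.21, adjusted p = 3.32e-05). Fmnl1, a formin that nucleates actin filaments, had 30.1%, 33.7% and 26.2% in R6/2 WT and 56.2%, 83.9% and 96.7% in R6/2 HD mice, the widest spread within a group among the 15 shared events (3.77 ± 0.76, adjusted p = 0.00262). Dnm1l, the dynamin-related GTPase of mitochondrial fission, rose to 4.65% ± 0.207 (SD, n = 3) in R6/2 HD mice from 1.79% ± 0.523 (SD, n = 3) in WT (1.45 ± 0.19, adjusted p = 1.28e-04). P2rx4, an ATP-gated channel, rose from 4.84% to 9.0% in R6/2 HD mice (0.96 ± 0.21, adjusted p = 0.00412).

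The rule also picked events whose change was large in R6/2 HD or Q150 HOMO mice. Rps6kb2, a kinase of ribosomal protein S6, had 52%, 25% and 31.7% in R6/2 WT and 79.1%, 63.3% and 66.7% in R6/2 HD mice (2.05 ± 0.48, adjusted p = 0.00673). Values of Thyn1, a nuclear protein first described in thymocytes, were 66.7%, 40.0% and 22.2% and 80.6%, 72.3% and 76.8% (2.11 ± 0.61, adjusted p = 0.0204, lost without WT replicate 4 or 6 or HD replicate 860 or without a variance trend, with up to 0.0830). In neither gene did the R6/2 groups overlap. Both were shallow, with 25 to 108 counts a mouse for Rps6kb2 and 10 to 57 for Thyn1, and the 95% Wilson interval of a single value reached up to 18.2 and 26 points to either side. Sat1, which acetylates polyamines, had 99.2%, 98.6%, 99.1%, 98.6% and 97.6% in Q150 WT and 99.6%, 99.4%, 99.7% and 99.4% in Q150 HOMO mice (1.45 ± 0.37, adjusted p = 0.00675). Ttc3, a ubiquitin ligase that acts on the kinase Akt, had 42.9%, 51.4%, 57.9%, 51.4% and 58.8% and 74.3%, 70.1%, 83.5% and 64.4% (1.33 ± 0.38, adjusted p = 0.0151, up to 0.0725 over all alternatives, lost without HOMO replicate 3). Both were free of overlap in Q150 HOMO mice, although Ttc3 had 18 to 103 counts a mouse and an interval of up to 20.5 points to either side. Both also passed in R6/2 HD mice, Sat1 by 1.63 ± 0.50 (adjusted p = 0.0270) and Ttc3 by 1.56 ± 0.50 (adjusted p = 0.0333), and each of these calls was lost without any of 4 single mice (up to 0.128 and 0.123) and without a variance trend. The 98-base exon of D230025D16Rik has a length that is not a multiple of 3. Its exclusion rose to 38.1% ± 3.91 (SD, n = 3) in R6/2 HD mice from 14.5% ± 5.46 (SD, n = 3) in WT (1.89 ± 0.32, adjusted p = 8.46e-04). Epb4.1l4b, a FERM domain protein, rose from 14% to 22% (0.77 ± 0.19, adjusted p = 0.00992).

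Mag was the single shared event with lower exclusion in HD mice. It encodes the myelin-associated glycoprotein of oligodendrocytes, and alternative splicing near its end is known to give protein forms with short and long cytoplasmic tails. Exclusion of its 45-base exon was 35.2%, 42.9% and 42.2% in R6/2 WT and 20.8%, 17.8% and 13.7% in R6/2 HD mice. In the Q150 set it was 19.3%, 21.3%, 20.5%, 25.5% and 21.4% in WT, 14%, 13.9%, 11.9% and 12.7% in HET and 15%, 18%, 22% and 13.9% in HOMO mice. In the Q175 set it was 29.9%, 27.4%, 27.6%, 27.4% and 26.1% in WT, 22.8%, 19.9%, 17.7% and 15.3% in HET and 13.5%, 18.2% and 18.8% in HOMO mice. All mutant groups stood below their WT mice except Q150 HOMO, which overlapped them. The change was larger in HET than in HOMO mice of the Q150 line, -0.87 ± 0.14 (adjusted p = 0.00264) against -0.42 ± 0.14 (adjusted p = 0.0310), a difference that was not tested. Counts of the oligodendrocyte markers with an event, Mag and Mbp of a list of 10 genes, made up 1.09% to 1.33% of all counts in R6/2 WT and 0.900% to 1.31% in R6/2 HD mice. With Mobp and Plekhb1 they were 1.17% to 1.93% in Q150 WT, 1.31% to 2.36% in HET and 1.18% to 2.09% in HOMO mice, and with Mobp 0.883% to 1.10%, 0.783% to 0.908% and 0.671% to 1.14% in the Q175 set. Their part in the result was not tested. In tissue RNA, fewer cells of a type and less RNA per cell cannot be told apart.

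Events were listed for 4 of 12 neuronal markers (Camk2b, Gria2, Grin1 and Syt1). These took 3.47% to 3.87% of counts in R6/2 WT and 2.75% to 3.23% in R6/2 HD mice, without overlap. The share was 3.55% to 4.30% in Q150 WT, 3.07% to 3.89% in HET and 3.12% to 3.56% in HOMO mice, and 3.18% to 3.99%, 3.23% to 3.83% and 3.32% to 3.84% in the Q175 set. Their part in the counts of compact events was not tested. None of the 7 astrocyte and 6 microglia markers had an event.

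In HET mice fewer compact events passed. All 12 events that passed in Q150 HET mice also passed in Q150 HOMO mice, which share their WT mice. Hnrpdl event 9429, Rbm5, Adamts10, Rbbp6, Centg1, Smarca4, Kdm6a and Mag were described above, the naming rule also picked Ccdc50 and Tnrc6a, and the other two were Fhl1 and Hnrnpa1, named after their values were seen. The HET change of Centg1 was 0.58 ± 0.16 (adjusted p = 0.0418). Smarca4 rose in HET mice from 83.6% ± 2.84 (SD, n = 5) to 88.5% ± 1.46 (SD, n = 4), with overlap (0.58 ± 0.15, adjusted p = 0.0315), and Kdm6a from 38.3% ± 3.91 (SD, n = 5) to 52.3% ± 2.66 (SD, n = 4), without overlap (0.82 ± 0.17, adjusted p = 0.0117). Ccdc50 rose from 7.76% ± 1.90 (SD, n = 5) to 17.2% ± 4.00 (SD, n = 4) (1.29 ± 0.27, adjusted p = 0.0117), with no HET mouse among the WT values. Tnrc6a, a partner of Argonaute proteins in silencing by microRNAs, rose from 47.3% ± 6.94 (SD, n = 5) to 62.1% ± 3.80 (SD, n = 4) (0.86 ± 0.22, adjusted p = 0.0314). Its call in HOMO mice (0.63, adjusted p = 0.0426) was lost under 11 of 18 alternatives. With all 10 knock-in WT mice the change was 0.54 in HET (adjusted p = 0.133) and 0.30 in HOMO mice (adjusted p = 0.329), and neither passed. Without HET replicate 1 the calls of Adamts10, Ccdc50, Centg1, Kdm6a, Rbbp6, Rbm5, Smarca4 and Tnrc6a in HET mice were lost, with adjusted p from 0.0561 (Kdm6a and Adamts10) to 0.144 (Rbbp6). The HET calls of Centg1, Smarca4 and Tnrc6a were lost without any of 8, 6 and 8 single mice, that HET mouse included, with adjusted p of up to 0.134, 0.112 and 0.0830, and also after centring and without a variance trend. In the quasi-binomial model the HET calls of Rbm5 (0.0589) and Centg1 (0.142) were lost. Other settings added HET calls. With the series of mouse numbers as a term Mlx, P2rx4, Sars and Ubtf were among the events past the threshold in Q150 HET mice (adjusted p of 0.00257 to 0.0456), and with all 10 knock-in WT mice so were Chd5, D230025D16Rik, Fmnl1, Mib2, Mlx, P2rx4, Pcsk7, Rnf112, Tsr1, Ttc3 and Ubtf (0.0127 to 0.0452). In Q175 HET mice the 2 events past the threshold were Hnrpdl event 9429 and Mag, which also passed in Q175 HOMO mice.

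Compact events were also counted by the function of their genes, over lists chosen with earlier results of these data known. The lists held 82 of the 220 events. Beside their counts stand the shares of all events past the threshold, 28.6% in R6/2 HD, 23.9% for the Q150 and 7.07% for the Q175 HOMO mice, and most lists are too short to be set apart from these. Of 23 events in genes of splicing and RNA binding, 12 passed in R6/2 HD (8 higher, 4 lower), 9 in Q150 HOMO (6 higher, 3 lower) and 1 in Q175 HOMO mice, with a median log2 change of 0.20 in R6/2 HD and in Q150 HOMO mice, beside medians over all events of 0.18 and 0.19. Chromatin and transcription genes passed in 7 of 15 events in R6/2 HD (6 higher, 1 lower), 6 of 16 in Q150 HOMO and 4 of 15 in Q175 HOMO mice, all of the knock-in calls higher, with medians of 0.60, 0.40 and 0.25. Among 8 events of ubiquitin, chaperone and autophagy genes 4 passed in R6/2 HD (3 higher, 1 lower) and 2 in Q150 HOMO mice, and 1 of 9 in Q175 HOMO mice. Cytoskeleton and motor genes passed in 3 of 7 events in R6/2 HD mice (all higher), 3 of 7 in Q150 HOMO (2 higher, 1 lower) and 1 of 7 in Q175 HOMO mice. Traffic genes passed in 3 of 7, 2 of 8 and 2 of 8 events. Listed kinases and phosphatases passed in 1 of 7, 2 of 8 and 0 of 8 events. The R6/2 call was Mark2, a kinase of microtubule-associated proteins, with lower exclusion in R6/2 HD mice (-0.38 ± 0.11, adjusted p = 0.0190). It was lost, at up to 0.100, without WT replicate 4 or 6, HD replicate 869 or a variance trend. Neither this list nor that of ubiquitin genes is complete. The kinases Rps6kb2 and Tnk2 (event 3784) and the ubiquitin ligase Ttc3 lie outside the lists and passed with higher exclusion in R6/2 HD mice. Of 3 events in channels, receptors and transporters 1 passed in R6/2 HD and 1 in Q150 HOMO mice. Lists for adhesion and guidance, GTPase regulators and metabolism held 1 or 2 events each; of these Unc5a, a netrin receptor, passed in R6/2 HD mice (0.78 ± 0.23, adjusted p = 0.0215, lost without WT replicate 3 or HD replicate 868 or 869 and, at 0.0574, after centring), as did Dnm1l, also in Q150 HOMO mice, and Arhgap4, a GTPase-activating protein named after its values were seen, passed with lower exclusion in Q150 HOMO mice. In HET mice the calls within lists were 3 of 23 in splicing, 2 of 16 in chromatin and 1 of 8 in traffic genes of the Q150 line (3.47% of all events) and 1 of 23 in splicing genes of the Q175 line (0.598% of all events).

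Calls were also counted by span, start level and exon kind, as a description of small classes with no test, beside 28.6% of all events past the threshold in R6/2 HD, 23.9% for the Q150 and 7.07% for the Q175 HOMO mice. In R6/2 HD mice 6 of 23 events spanning at most 500 bp passed (26.1%), 37 of 92 of those over 500 and up to 1000 bp (40.2%) and 32 of 81 of those over 1000 bp (39.5%). In Q150 HOMO mice the shares were 33.3%, 39.8% and 24.7%, and in Q175 HOMO mice 7.69%, 16.5% and 5.0%, so that the middle class was highest in each. Events already skipped in over 90% of WT counts passed in 6 of 34 cases in R6/2 HD mice (17.6%), against 42.2% of those between 10% and 90% and 44.1% of those under 10%. Coding exons passed in 44 of 104 cases in R6/2 HD mice, 41 of them with higher exclusion, and untranslated exons in 12 of 41, with 7 higher and 5 lower. Where the shorter flanking intron had under 100 bases, 3 of 19 events passed in R6/2 HD mice (15.8%), against 64 of 149 others (43%), while in Q150 HOMO mice the shares were 28.6% and 33.8%. The 7 exons of at most 27 bases, in Mark4, Aifm3, Ap1b1, Eif4g1, Mink1, Chpt1 and Heatr7a (now Mroh1), gave 1 call in R6/2 HD mice (Aifm3, adjusted p = 0.0312) and 2 in Q150 HOMO mice (Mark4, adjusted p = 0.0102, and Aifm3, adjusted p = 0.0271). In R6/2 HD mice the shares of the shortest span and of untranslated exons lay near that of all events, and those of over 90% skipping and of the shortest introns, in 34 and 19 events, were lower.

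Letters of 2 known motifs were looked up in the 188 exons with 20 bases of intron on either side, on the strand of the gene. TGTGT is part of the GU-rich repeats bound by TDP-43, and TGACT is a core in which adenosine can carry the m6A mark. TGTGT stood in 35 compact windows (18.6%), against 21.5% of the windows of longer cassettes, and TGACT in 28 (14.9%), against 14.1%. On the opposite strand the shares were 11.2% against 14.6% and 10.6% against 14.9%. Of all events, 28.6% passed in R6/2 HD, 23.9% for the Q150 and 7.07% for the Q175 HOMO mice. Events with TGTGT in the window passed in 8 of 32 cases in R6/2 HD mice (25%) and those without it in 59 of 136 (43.4%). With TGACT 11 of 24 passed (45.8%) and without it 56 of 144 (38.9%). In Q150 HOMO mice the shares with and without the motif were 26.5% and 34.7% for TGTGT and 32% and 33.3% for TGACT, and in Q175 HOMO mice 6.06% and 13.5% for TGTGT and 16% and 11.5% for TGACT. Over the whole interval, 55 of 134 events with TGTGT passed in R6/2 HD mice (41.0%) and 12 of 34 without it (35.3%). In Q150 HOMO mice the shares with and without TGTGT in the interval were 32.4% and 36.1%, and in Q175 HOMO mice 13.4% and 7.69%. For TGACT they were 42.2% and 35.6% in R6/2 HD and 33.9% and 31.7% in Q150 HOMO mice. In Q175 HOMO mice they were 15.7% and 6.06%. None of these shares was tested. Matches are letters in the windows or intervals and say nothing of binding or of a mark.

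Whether an event changed by a different amount in different lines was tested by an interaction over events listed in both sets. R6/2 HD and Q150 HOMO mice differed in 16 of 187 compact events (8.56%), against 6.43% of all events, and R6/2 HD and Q175 HOMO mice in 30 of 191 (15.7%), against 11.6%. The R6/2 change was the more positive in 9 and in 24 of these. Q150 HOMO and Q175 HOMO mice differed in 1 of 196, Mark4, a kinase of the same family as Mark2, against 2.31% of all events (adjusted p = 0.0441, with the more positive change in Q150 HOMO mice). That call was lost after centring (adjusted p = 0.0898) and without a variance trend (0.0943). After centring 1 other event passed instead, Dst, named after its values were seen, with the more positive change in Q175 HOMO mice (a difference of -0.67, adjusted p = 0.0393). The difference was 2.22 ± 0.27 (log2) for Hnrpdl event 9429 between R6/2 HD and Q150 HOMO mice (adjusted p = 1.47e-05), 1.12 ± 0.20 for Sars (adjusted p = 0.00173), 1.04 ± 0.14 for Rbbp6 (adjusted p = 4.15e-05) and 1.76 ± 0.24 for Pcbp2 (adjusted p = 5.14e-05). Between R6/2 HD and Q175 HOMO mice it was 1.07 ± 0.14 for Centg1 (adjusted p = 9.52e-06), 0.88 ± 0.18 for Smarca4 (adjusted p = 0.00152) and 0.67 ± 0.21 for Rnf112 (adjusted p = 0.0405). The Rnf112 difference no longer passed after centring (0.0861) or without a variance trend (0.111). The lines differ in the kind of mutation, in age and in the set of files, which cannot be told apart.

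**Figure D5:**
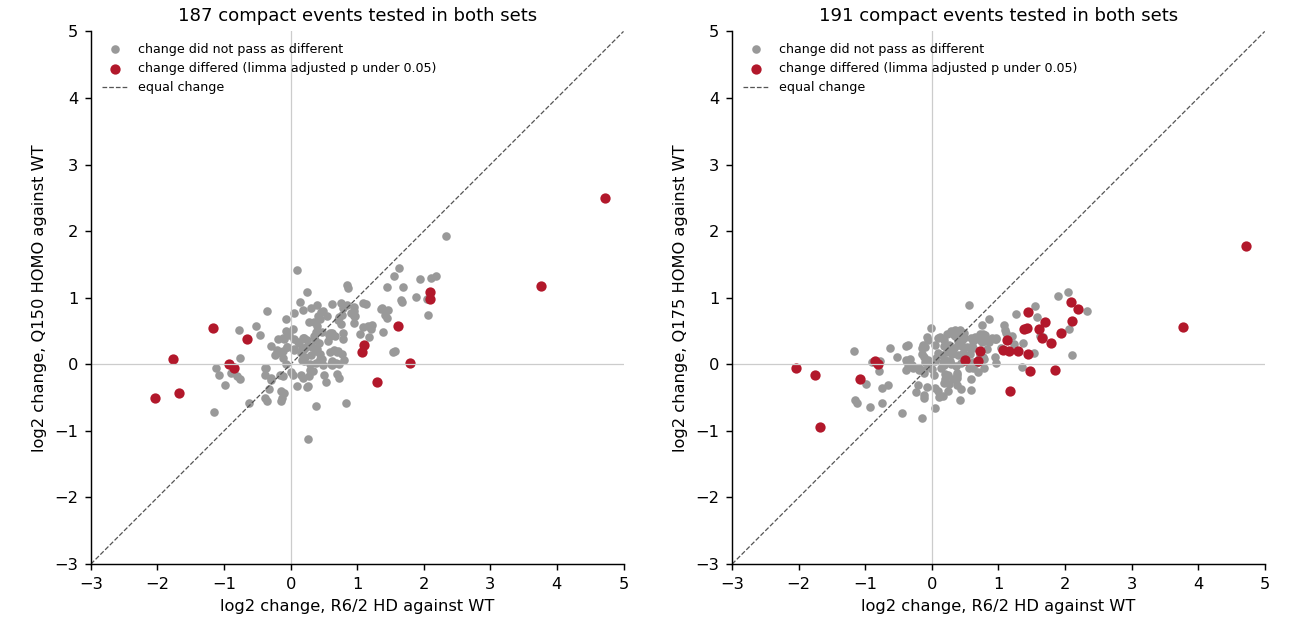
The log2 change of each compact event in R6/2 HD mice (horizontal axis) against that in Q150 HOMO (left, 187 events) and Q175 HOMO mice (right, 191 events), each against its own WT mice; the dashed line marks equal change and red points are events whose change differed (limma adjusted p under 0.05). There are 16 red points on the left and 30 on the right, and Hnrpdl event 9429 lies farthest right, at 4.72 in R6/2 HD mice.

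Some compact events were measured closely in R6/2 HD mice and did not pass. The 3 with the narrowest interval in R6/2 HD mice among those that passed in no comparison were Golga2, Tecr and Wbp2. Golga2, a structural protein of the cis-Golgi, had a 95% interval of -0.26 to 0.16 around a log2 change of -0.05. For Tecr, a reductase of very-long-chain fatty acid synthesis, the interval was -0.04 to 0.44 around 0.20, and for Wbp2, a WW domain binding protein, it was -0.02 to 0.50 around 0.24. In the Q150 line their standing depended on the setting. Wbp2 had a change of 0.36 in HOMO mice (adjusted p = 0.0648) and passed with the series of mouse numbers as a term (0.00145), with all 10 knock-in WT mice (0.0153) and without HOMO replicate 4 or WT replicate 1 or 2 (up to 0.0479). With that term Golga2 passed in both HET (0.0308) and HOMO mice of this line (0.0208), as it did in HOMO mice without WT replicate 3 (0.0271). At the edge of the rule, Ptbp1, a repressor of neuronal exons, changed by -0.06 ± 0.17 in R6/2 HD mice (adjusted p = 0.841) and Ktn1 event 3970 by 0.70 ± 0.40 (adjusted p = 0.226).

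Of the 6 genes with 2 listed compact events, Hnrpdl is described above, and the events that follow, apart from Ktn1 event 3970, were named after their values were seen. Tnk2, a non-receptor tyrosine kinase, rose at event 3784 from 82.8% ± 0.844 (SD, n = 3) (WT) to 93.8% ± 1.51 (SD, n = 3) in the HD mice of the R6/2 set (1.67 ± 0.34, adjusted p = 0.00262). At this event Tnk2 also passed in Q150 HOMO mice (0.94 ± 0.30, adjusted p = 0.0276), where the groups overlapped. Its event 4046 stood at 30.7% in WT and 20.6% in HD mice (-0.76 ± 0.29, adjusted p = 0.0693) and did not pass. Ktn1, an anchor of kinesin on membranes, rose at event 7785 from 51.6% ± 2.06 (SD, n = 3) (WT) to 63.2% ± 2.47 (SD, n = 3) in the R6/2 HD group (0.69 ± 0.11, adjusted p = 0.000642), while event 3970 did not pass. Neither event of Eif4g1, a translation initiation factor, nor of Mink1, a kinase, passed in R6/2 HD, Q150 or Q175 mice. For Nnat, a small membrane protein of the developing brain, exclusion was 59.4% in R6/2 WT and 34.6% in R6/2 HD mice (-1.39 ± 0.50, adjusted p = 0.0550), which did not pass.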

How the data were processed

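RASL-seq libraries of mouse cortex, 1 per mouse, had been counted by the authors as short and long junctions per event. The deposited values, recorded as other because large values carry a comma, are whole counts with no normalization. Every listed junction had at least 4 counts, so the lists had been filtered. Groups came from the sample labels. The knock-in line was taken from the glutamine numbers, since every knock-in title reads Q150 and the genotype of every mutant knock-in mouse, Q150 mice included, begins with Q175. For 1 Q175 HET mouse the title and the file give different numbers, and the study's methods give other numbers of homozygotes, whereas its account of this assay counts them as the labels do. Ages came from the study's methods. The labels' processing notes name mm10, yet 198 of 217 compact events with a known symbol lay outside their gene on GRCm38, so exons were matched to GENCODE M21 by gene and interval length, and the files' positions were not converted. The exact interval length matched for 215 events.

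Per mouse, log2((short + 0.5) / (long + 0.5)) was fitted by limma (3.58.1, R 4.3.3) with 1 mean for each group and all mice of a set together, moderated with a trend on log2(short x long / (short + long) + 0.5). The adjusted p is Benjamini-Hochberg over all events, and changes with a pseudocount are understated for rare junctions. Each mouse is 1 replicate, and p-values measure the spread between these mice. On simulated counts with 200 events changed by 1.5 (log2) in random directions, 69.0% were recovered for R6/2 HD (1743 events). Recovery was 89.0% and 86.5% for Q150 HET and HOMO (1785 events), and 91.5% and 80.0% for Q175 HET and HOMO mice (1839 events). In this order 2.82%, 4.81%, 4.95%, 7.11% and 4.19% of calls were false. The simulated size exceeds most changes of compact events. An absolute change of at least 1 was reached by 44 of 75 compact calls in R6/2 HD mice. It was reached by 18 of 68 in Q150 HOMO and 2 of 23 in Q175 HOMO mice. Recovery of smaller changes was not simulated.

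Named events were those past the threshold with 1 sign in R6/2 HD and both HOMO groups, the largest changes per comparison without overlap (up to 10, or 5 for HET), up to 3 per gene list by R6/2 adjusted p, the events nearest the span limit, and the 3 narrowest intervals without a call. The members, lists and tests were chosen with earlier results of these data known. Alternatives were other count minimums (50 or none), a pseudocount of 5, no variance trend, centring on the median event, a quasi-binomial model, a minimum log2 change of 0.5, fewer or more WT mice, the series of mouse numbers, other summaries, a span of at most 1000 bp, and leaving out each mouse. Figures were drawn with matplotlib 3.10.9.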

Additional observations from a re-analysis of the deposited data

Results flagged for a closer look

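Within groups of 4 or 5 mice, 143 sets of exclusion values of named events were examined for a mouse far from the others by Dixon's test, and 5 had one. Chance flags about 1 in 20 groups. Q150 HET replicate 4 had 75.7% for Chd5, where the other HET mice had 72.5% to 72.7%, and 33.1% for Mlx, where they had 22.6% to 23.9%. Q150 HET replicate 3 had 2.80% for Tsr1 against 1.58% to 1.75%. Q175 HET replicate 4 had 8.18% for Centg1 against 7.41% to 7.52%, and Q175 HET replicate 1 had 21.5% for Ubtf against 25.6% to 26.3%. None of these events passed in the HET group concerned with all mice of the set. Ubtf passed in Q175 HET mice without that replicate 1 (change of 0.37, adjusted p = 0.0271). In Q150 HET mice Mlx passed with the series of mouse numbers as a term (0.0314) and with all 10 knock-in WT mice (0.0452), as did Chd5 (0.0438) and Tsr1 (0.0180) with all 10.

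For 23 comparisons of named events the change differed between R6/2 HD mice and a HOMO group (limma interaction, adjusted p under 0.05). From Q150 HOMO mice the R6/2 change differed by -1.54 (log2) in Hnrpdl event 8890, 2.22 in Hnrpdl event 9429, 1.04 in Rbbp6, 1.76 in Pcbp2, 1.12 in Sars, -1.26 in Mag, 1.01 in Pcsk7 and 2.59 in Fmnl1. From Q175 HOMO mice it differed by 2.95 in Hnrpdl event 9429, -1.98 in Hnrpdl event 8890, 1.45 in Sars, 1.08 in Rbbp6, 1.07 in Centg1, 1.46 in Pcbp2, 1.48 in Adamts10, 1.29 in Dnm1l and 0.88 in Smarca4. The remaining differences from Q175 HOMO mice were 3.21 in Fmnl1, 1.16 in Pcsk7, 1.35 in Mlx, -0.75 in Mag, 0.67 in Rnf112 and -0.86 in Rnf167. In Rnf167, Mag and Hnrpdl event 8890 the negative difference means a stronger move toward inclusion in R6/2 HD mice. Of these differences 5 were lost under another setting. Without a variance trend those of Fmnl1 from Q150 HOMO (adjusted p = 0.134) and Q175 HOMO mice (0.0605), of Mag from Q175 HOMO mice (0.112), of Rnf112 (0.111) and of Rnf167 (0.0601) no longer passed, and centring also ended that of Rnf112 (0.0861).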

How the results depend on the processing

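No named call and no difference in mean exclusion changed sign. Of 92 calls of named events 57 held under every alternative run and 35 were lost under some; the cause was not tested. Some losses are not given with their genes. No variance trend cost Epb4.1l4b its call in R6/2 HD mice (adjusted p = 0.0504) and Mib2 (0.0670) in Q150 HOMO mice. All 10 knock-in WT mice cost Mag its call in Q175 HET mice (0.147, and 0.211 with no variance trend). Centring cost Dnm1l (0.0551), Mib2 (0.233), Rabl2 (0.0919), Rps6kb2 (0.0644), Thyn1 (0.0886) and Shc1 (0.0789) theirs in Q150 HOMO mice. Leaving out single mice also ended calls in Q150 HOMO mice. Thyn1 was lost without any HOMO mouse or WT replicate 1 or 2 (up to 0.112), and at 0.106 with all 10 knock-in WT mice. Mib2 was lost without HOMO replicate 1 or 2 or WT replicate 3 or 5 (up to 0.0988). Rabl2 was lost without HOMO replicate 1 or 2 (up to 0.113) and Rps6kb2 without HOMO replicate 1 or 3 (up to 0.0569). No paired analysis was possible because the groups of a set share no mouse numbers, and numbers given in order only name mice. With a mouse left out, compact events past the threshold numbered 60 to 72 in R6/2 HD, 2 to 10 in Q150 HET, 52 to 67 in Q150 HOMO, 2 to 4 in Q175 HET and 13 to 21 in Q175 HOMO mice. Differences in mean exclusion then ran over 3.91 to 4.5, 0.959 to 1.37, 2.51 to 3.16, 0.521 to 0.958 and 1.37 to 1.74 points. Without a variance trend 6 events passed in Q150 HET, 1 in Q175 HET and 9 in Q175 HOMO mice, and 0 differed between Q150 HOMO and Q175 HOMO mice, where 1 (Mark4) had with it and a different 1 (Dst) after centring. Centring left 7 in Q150 HET mice. The series of mouse numbers as a term gave 21 in Q150 HET and 15 in Q175 HOMO mice, and a mean difference of 2.03 points in Q175 HOMO mice. All 10 knock-in WT mice gave 26 in Q150 HET and 11 in Q175 HOMO mice. Medians over events gave differences in exclusion of 7.00, 2.09, 3.83, 2.20 and 3.11 points in the R6/2 comparison, the Q150 line (HET, HOMO) and the Q175 line (HET, HOMO). Summed counts gave 2.95 points in R6/2 HD mice, 0.854 and 1.40 in the Q150 line and 0.305 and 0.913 in the Q175 line, and a span of at most 1000 bp gave 5.80 points in R6/2 HD mice.

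Counts limited the precision of shallow events. Over the 15 shared events a mouse had 113 to 25736 counts, and the widest 95% Wilson interval of a single value was 0.725 to 7.87 points to either side, depending on the event; for Rps6kb2, Ttc3 and Thyn1 it reached 18.2, 20.5 and 26 points. R6/2 comparisons rest on 3 mice against 3. An event missing from a list was not analysed here.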
